A study of Mus musculus with 12 samples.

Results

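Several transcription factors are linked to the identity of brain endothelial cells, and 9 of their genes were followed here across 3 Gpr124 genotypes. Other endothelium was not measured. The genes are the forkhead genes Foxf1, Foxf2, Foxq1, Foxc1 and Foxl2, the SOXF genes Sox7, Sox17 and Sox18, and Ppard, which encodes the nuclear receptor PPAR-delta. They were taken by name as factors linked to brain endothelial identity. No threshold on measured values was applied, but the choice was made with earlier results of these data known. All 9 of the 49315 genes in the files were found, and all 9 were among the 16637 genes that passed the filter on low counts. RNA was sequenced from CD31+ endothelial cells (also gated as CD140b-, CD45- and 7AAD-) that had been isolated by flow sorting from mouse forebrain at E15.5, 1 embryo for each library. Each genotype was represented by 4 embryos, which were wild type, Gpr124deltaC/deltaC or Gpr124-/-. Gpr124, listed as Adgra2, encodes an adhesion receptor that acts with RECK as a coactivator of WNT7 signaling in brain endothelium. The deltaC allele carries a V5 tag and a stop codon after the transmembrane region, so the receptor lacks its intracellular domain, and its protein is expressed inefficiently. The Gpr124-/- embryos carried a lacZ allele. Both alleles were germline, so every cell type of the embryo was mutant, and differences in endothelial cells cannot be told apart from differences that follow from other mutant cells.

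In the brain, WNT ligands from neural cells act on endothelial Frizzled receptors, stabilize beta-catenin and switch on genes through TCF and LEF factors, and this signal is needed for vessel ingrowth and for the blood-brain barrier. Forkhead and SOXF proteins bind DNA and shape endothelial identity. FOXF2 and FOXQ1 are enriched in brain endothelium, FOXC1 is needed for brain vessel development, and SOX7, SOX17 and SOX18 act together in vessel formation. PPAR-delta binds fatty acids and, with RXR, switches on genes of fatty acid oxidation.

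Libraries held 13877572 to 22551163 reads counted on genes. As a check of the Gpr124-/- label, Adgra2 had 38.6 ± 10.4 TPM (SD, n = 4) in wild type, 43.4 ± 13.7 in Gpr124deltaC/deltaC and 4.86 ± 0.988 in Gpr124-/-. Wild type and Gpr124deltaC/deltaC overlapped, so this gene does not check those labels against each other. The summed level of 12 endothelial markers was 16400 to 17970 CPM (counts scaled for library size with TMM factors) in wild type. It was 12640 to 16340 in Gpr124deltaC/deltaC and 13460 to 16020 in Gpr124-/-, so every mutant library lay below every wild-type library. All 12 markers were above 0. Their median log2 fold change was 0.13 in Gpr124-/-, with Emcn called higher (1.26) and Cldn5 called lower (−2.12). In Gpr124deltaC/deltaC the median was 0.00, with 0 called and Cldn5 at −0.97. Cldn5 was the most abundant of the 12, at 2671 CPM on average. Pericyte markers summed to 39.6 to 90.9 CPM in wild type, 22.1 to 50.04 in Gpr124deltaC/deltaC and 59.8 to 85.6 in Gpr124-/-, and the median log2 fold change of the 10 pericyte markers was −0.90 in Gpr124deltaC/deltaC, with 1 called lower (Higd1b, −1.54). In Gpr124-/- that median was −0.06, with 1 called higher (Abcc9, 2.66) and 1 called lower (Rgs5, −1.47). Fibroblast markers summed to at most 113 CPM. Neuron markers summed to 77.6 to 167 CPM in wild type, 113 to 184 in Gpr124deltaC/deltaC and 140 to 182 in Gpr124-/-. Erythroid markers summed to 2634 to 8588 CPM in Gpr124-/-, where wild type had 1323 to 1871 and Gpr124deltaC/deltaC 824 to 1846. Macrophage markers summed to 16.2 to 37.4 CPM in Gpr124-/-, 5.52 to 11.7 in wild type and 9.86 to 14.3 in Gpr124deltaC/deltaC. The part of these cells in the results was not tested. In bulk samples, fewer cells that express a gene and less RNA per cell cannot be told apart.

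Embryo labels began with J, K, L or M, and the meaning of the letter is not given. The wild-type embryos were 2 of letter J, 1 of K and 1 of L. The Gpr124deltaC/deltaC embryos were 2 of J and 2 of L, and those of Gpr124-/- were 1 of K and 3 of M. No Gpr124deltaC/deltaC embryo shared a letter with a Gpr124-/- embryo, so letter and genotype cannot be told apart for most of the Gpr124-/- libraries. Letter M held only Gpr124-/- libraries. In a fit with the letter as a term, the Gpr124-/- difference from wild type therefore rests on 1 letter K library of each genotype. The difference between the mutants in that fit rests in part on the same pair. No p-value is given for such values.

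Levels of the 9 genes are given in TPM, a read count corrected for gene length and library size. In wild type, Sox18 was the most abundant at 897 TPM, followed by Sox7 at 466, and the ranges of these genes did not overlap each other or that of the next gene. Foxf2 (254 TPM), Foxq1 (140) and Sox17 (96.5) came next, with overlapping ranges between neighbors. Foxc1 (26.9), Foxf1 (26.7), Ppard (17.1) and Foxl2 (11.4) were lowest, each overlapping the next in this order.

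**Figure D1:**
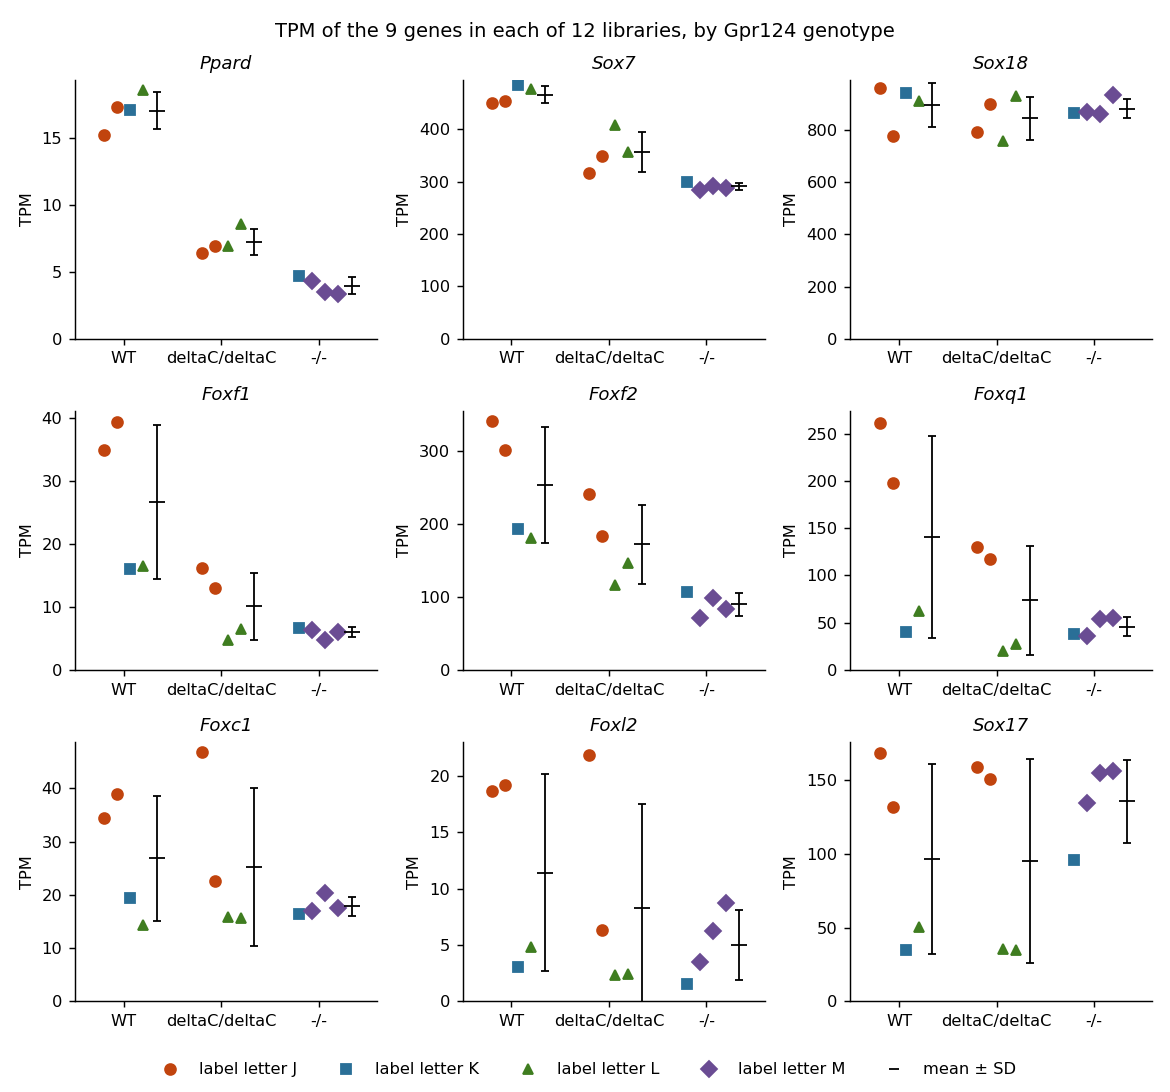
TPM (linear axis from 0) of each gene in each library, by Gpr124 genotype, with the shape and color of a point giving the first letter of the embryo label and the bar the mean ± SD of 4 libraries. Ppard and Sox7 separate by genotype, whereas Foxf1, Foxf2, Foxq1, Foxc1, Foxl2 and Sox17 separate by letter within wild type and Gpr124deltaC/deltaC. The lower bar of Foxl2 in Gpr124deltaC/deltaC is cut at 0.

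Against wild type, a gene is described as called when its adjusted p (edgeR quasi-likelihood test, Benjamini-Hochberg) was under 0.05 and its log2 fold change was above 1 in size, and as having fallen or risen when its adjusted p was under 0.05 at any fold. In Gpr124-/-, 3 of the 9 genes were called lower (Ppard, Foxf1 and Foxf2) and 0 higher, beside 4.21% of all tested genes called lower and 5.67% called higher. The 9 genes had a median log2 fold change of −1.26, against −0.01 over all tested genes. That median was −0.74 once the fit held a term for the letter, where it rests on 1 library of each genotype (letter K). It was −0.13 without the letter J libraries, which include 2 of the 4 wild-type and 0 of the 4 Gpr124-/- libraries. In Gpr124deltaC/deltaC, 1 of the 9 (Ppard) was called lower, beside 1.03% of all genes called lower and 0.89% called higher, and the median was −0.47 against 0.01 over all genes. Between the mutants, 0 of the 9 were called by edgeR or by DESeq2, beside 1.94% of all genes called lower and 2.67% called higher in Gpr124-/- than in Gpr124deltaC/deltaC. At an unadjusted p under 0.05, 3 of the 9 differed between the mutants, beside 22.8% of all genes, and at an adjusted p under 0.05 at any fold, 2 of the 9 were lower in Gpr124-/-, beside 3.89% of all genes. Without the letter J libraries, 2 of the 9 were called higher in Gpr124-/- than in Gpr124deltaC/deltaC, Sox17 (2.07, adjusted p = 0.00112, edgeR) and Foxq1 (1.06, adjusted p = 0.0249), beside 6.31% of all genes called higher in that fit. With all libraries the log2 fold change of Foxq1 was −0.72. Both comparisons against wild type share the 4 wild-type libraries.

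**Figure D2:**
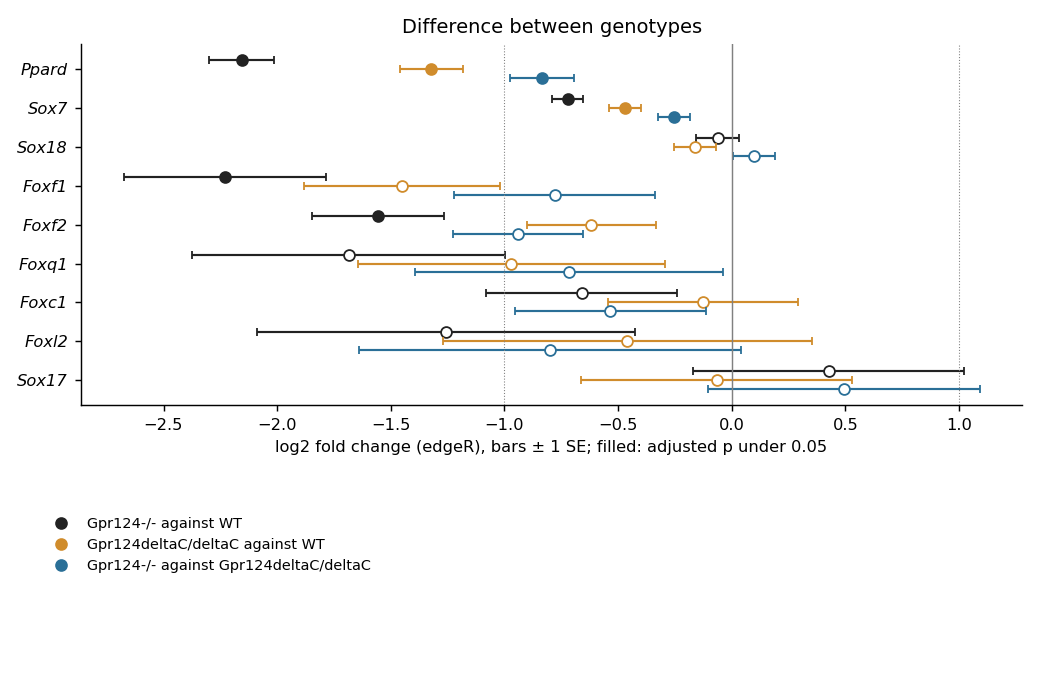
log2 fold change of each gene in the 3 comparisons between genotypes, with bars of 1 SE, filled where the adjusted p was under 0.05 (edgeR). Ppard and Sox7 have short bars and are filled in all 3 comparisons, while Foxq1, Foxl2 and Sox17 have bars that are wide and no filled points.

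Ppard fell in both mutants and had the narrowest spread relative to its change. Its TPM was 15.2, 17.3, 17.1 and 18.6 in wild type, 6.39, 6.96, 6.95 and 8.62 in Gpr124deltaC/deltaC, and 4.67, 4.29, 3.52 and 3.33 in Gpr124-/-. No library of a genotype overlapped one of another, so the 3 genotypes stood in the order wild type, Gpr124deltaC/deltaC and Gpr124-/-. The log2 fold change was −2.16 (SE 0.14, adjusted p = 6.31e-07, edgeR) in Gpr124-/- and −1.32 (SE 0.14, adjusted p = 0.000165) in Gpr124deltaC/deltaC, and mean TPM relative to wild type was 0.231 and 0.423. Between the mutants the difference was −0.84 (SE 0.14, adjusted p = 0.00332). With the label letter as a term, that difference was −0.57, resting on the single letter K pair for Gpr124-/-. Both differences from wild type kept an adjusted p under 0.05 in every other alternative tried.

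Ppard and Foxf2 are the genes called lower in Gpr124-/- for which a promoter window was given, and the 250 bases before their start are shown to let their base composition be seen. They are RefSeq windows of GRCm38.p6 on the plus strand, 5′ to 3′, with CG dinucleotides in capitals.
Ppard, chr17:28232504-28232753: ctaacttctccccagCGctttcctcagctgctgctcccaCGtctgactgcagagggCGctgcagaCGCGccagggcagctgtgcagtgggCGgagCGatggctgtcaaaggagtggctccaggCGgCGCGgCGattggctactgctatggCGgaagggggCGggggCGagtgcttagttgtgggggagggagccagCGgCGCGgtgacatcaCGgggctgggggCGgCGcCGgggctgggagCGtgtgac
Foxf2, chr13:31625566-31625815: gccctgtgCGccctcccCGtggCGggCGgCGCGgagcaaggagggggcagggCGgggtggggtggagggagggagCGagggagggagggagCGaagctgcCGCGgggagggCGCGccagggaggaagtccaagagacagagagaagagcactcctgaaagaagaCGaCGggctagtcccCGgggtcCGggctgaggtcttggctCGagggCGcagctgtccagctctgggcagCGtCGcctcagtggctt
These stretches hold 22 and 21 CG dinucleotides, against a median of 6 in the same stretch of 32851 windows. Windows were given for 4 of the 9 genes (Foxl2, Foxf2, Foxc1 and Ppard). On both strands of their 300 bases from 250 before to 50 after the start, 0 matches were found to CTTTGAT or CTTTGAA (TCF and LEF factors), TGTTTAC (forkhead factors) or ACAATGG (SOX factors), letters that occur in 3.73%, 5.13%, 3.65% and 3.66% of all windows.

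Genes known to respond to PPAR-delta were followed as a list of 10, all tested. In Gpr124-/-, 9 of the 10 were lower and 1 was higher at an adjusted p under 0.05 at any fold, beside 9.32% and 10.5% of all genes, and the median log2 fold change was −0.78, against −0.01 over all genes. Angptl4, which encodes an inhibitor of lipoprotein lipase, was 219 ± 26.5 TPM in wild type, 74.9 ± 29.1 in Gpr124deltaC/deltaC and 17.0 ± 3.06 in Gpr124-/- (SD, n = 4), and its log2 fold changes were −3.73 (adjusted p = 2.89e-07, edgeR) in Gpr124-/- and −1.65 (0.00044) in Gpr124deltaC/deltaC. Pdk4, which encodes a kinase that restrains pyruvate oxidation, had log2 fold changes of −3.18 and −1.48, and Cpt1a, which encodes the carnitine palmitoyltransferase of mitochondrial fatty acid import, had −1.05 in Gpr124-/-. In Gpr124deltaC/deltaC, 6 of the 10 were lower at an adjusted p under 0.05, beside 2.24% of all genes. The exception was Fabp4, a fatty acid binding protein gene that PPAR-gamma also drives, with 1 to 2 reads in wild type and 33 to 152 in Gpr124-/-. Whether the changes of any of the 10 genes follow from Ppard or from another regulator was not tested.

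**Figure D3:**
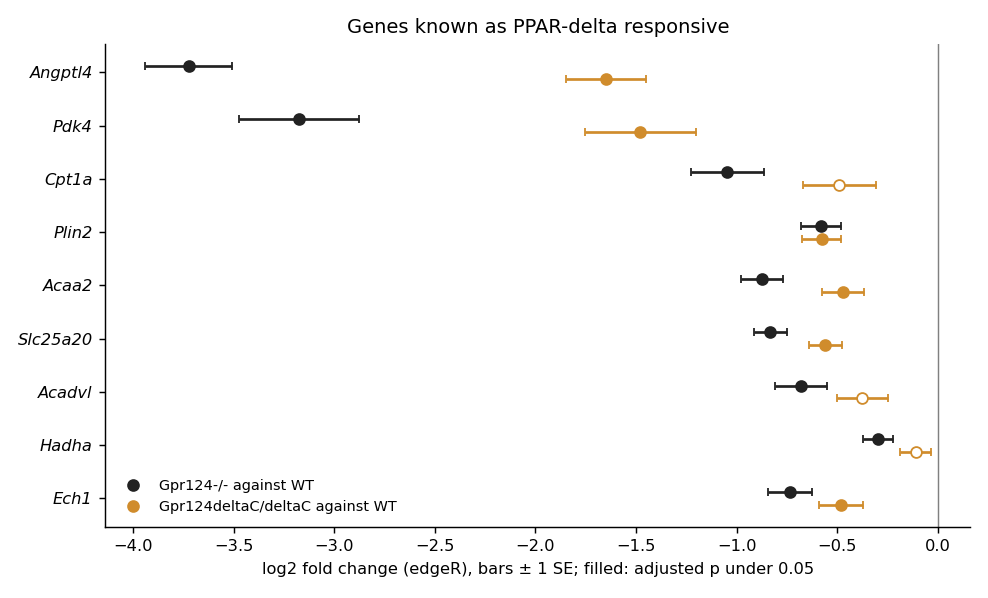
log2 fold change with SE of 9 genes known to respond to PPAR-delta in each mutant against wild type, filled where the adjusted p was under 0.05 (edgeR). Every point lies below 0, and Fabp4 is left out because wild type had 1 to 2 reads.

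Sox7 fell in both mutants by less than the fold threshold. Its TPM was 450, 454, 484 and 476 in wild type, 316, 349, 408 and 356 in Gpr124deltaC/deltaC, and 300.03, 284, 292 and 288 in Gpr124-/-. No library of a genotype overlapped one of another. The log2 fold change was −0.72 (SE 0.07, adjusted p = 1.05e-05, edgeR) in Gpr124-/-, −0.47 (SE 0.07, adjusted p = 0.00171) in Gpr124deltaC/deltaC and −0.25 (SE 0.07, adjusted p = 0.039) between the mutants. The adjusted p of the Gpr124deltaC/deltaC difference was 0.151 without the letter J libraries and 0.0837 with limma on log2(TPM + 1). That between the mutants reached 0.118 when a single library was left out (LE2). With the letter as a term, the difference between the mutants rests on the letter K pair for Gpr124-/-. Sox7 differed by 0.00 on the log2 scale between letters J and L (SE 0.09).

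Sox18 had 962, 775, 942 and 910 TPM in wild type, 793, 899, 757 and 929 in Gpr124deltaC/deltaC, and 865, 867, 860 and 935 in Gpr124-/-, so all 3 genotypes overlapped. Its log2 fold change was −0.06 in Gpr124-/- (adjusted p = 0.711, edgeR), with a 95% interval from −0.24 to 0.12, and −0.16 in Gpr124deltaC/deltaC (adjusted p = 0.514), with an interval from −0.34 to 0.02.

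Sox17 separated the label letters instead. Its TPM was 169 and 132 in the letter J wild-type libraries and 34.8 and 50.3 in those of letters K and L, 159 and 151 in the letter J Gpr124deltaC/deltaC libraries and 35.4 and 35.0 in those of letter L, and 96.1 (letter K), 135, 155 and 156 (letter M) in Gpr124-/-. The high libraries within wild type and Gpr124deltaC/deltaC were all of letter J. The genotype differences were 0.43 on the log2 scale in Gpr124-/- (SE 0.60, adjusted p = 0.687, edgeR) and −0.07 in Gpr124deltaC/deltaC (SE 0.60, adjusted p = 0.989), and the difference between letters J and L within genotype was 2.06 (SE 0.14, adjusted p = 2.19e-06). Without the letter J libraries, Gpr124-/- stood 1.70 above wild type (adjusted p = 0.000985) and 2.07 above Gpr124deltaC/deltaC (adjusted p = 0.00112). With the letter as a term these differences were 1.42 and 1.67. For Gpr124-/- those values rest on the single letter K pair, in which the Gpr124-/- embryo had 96.1 TPM and the wild-type embryo 34.8. The share of Sox17 in the summed TPM of the 3 SOXF genes was 9.70% to 12.5% in letter J, 2.38% to 3.50% in the letter K and L libraries of wild type and Gpr124deltaC/deltaC, and 7.62% to 11.9% in Gpr124-/-. Sox17 shares exonic bases with Gm37587 on the opposite strand (3.54 CPM on average), and reads there could not be assigned if strand was not used.

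Foxf1 and Foxf2, paralogous forkhead genes, fell in Gpr124-/- and also differed by letter. Foxf1 TPM was 34.9, 39.4, 16.03 and 16.43 in wild type, with the letter J libraries first, 16.16, 12.99, 4.81 and 6.48 in Gpr124deltaC/deltaC, and 6.66, 6.29, 4.80 and 6.11 in Gpr124-/-. No Gpr124-/- library reached any wild-type library. The log2 fold change was −2.23 (SE 0.45, adjusted p = 0.0032, edgeR) in Gpr124-/- and −1.45 (SE 0.43, adjusted p = 0.0938) in Gpr124deltaC/deltaC. Without the letter J libraries these were −1.43 (adjusted p = 0.00132) and −1.61 (adjusted p = 0.0179). With the letter as a term they were −1.31, resting on the letter K pair, and −1.48 (adjusted p = 0.00026). DESeq2 gave −1.46 with an adjusted p of 0.0126 in Gpr124deltaC/deltaC, and letter J alone gave −1.39 (adjusted p = 0.0204). Letters J and L differed by 1.44 (SE 0.20, adjusted p = 0.000264).

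Foxf2 TPM was 341, 301, 192 and 180 in wild type, 242, 183, 117 and 146 in Gpr124deltaC/deltaC, and 107, 71.4, 98.1 and 83.9 in Gpr124-/-. All Gpr124-/- libraries lay below all others, while the other genotypes overlapped. The log2 fold change was −1.56 (SE 0.29, adjusted p = 0.00199, edgeR) in Gpr124-/-, −0.62 (SE 0.28, adjusted p = 0.344) in Gpr124deltaC/deltaC and −0.94 (SE 0.29, adjusted p = 0.0627) between the mutants. Without the letter J libraries the Gpr124-/- value was −1.04 (adjusted p = 0.00112). With the letter as a term it was −0.89, which rests on the letter K pair alone. With that term the Gpr124deltaC/deltaC value was −0.60 (adjusted p = 0.026), under 0.05 but below the fold threshold. The difference between the mutants was −0.30 with the same term, again resting on the letter K pair for Gpr124-/-. That difference had an adjusted p under 0.05 with DESeq2 (−0.93, adjusted p = 0.0184) and with upper-quartile factors in edgeR (−0.97, adjusted p = 0.0476). Letters J and L differed by 0.91 (SE 0.15, adjusted p = 0.000998).

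Foxq1, Foxc1 and Foxl2 showed a letter difference and, in the edgeR fit of all libraries without a letter term, no genotype call. Foxq1 TPM was 262, 198, 39.7 and 62.0 in wild type, 130, 118, 19.9 and 27.6 in Gpr124deltaC/deltaC, and 38.0, 36.2, 54.1 and 54.9 in Gpr124-/-. The letter J libraries were the highest of wild type and of Gpr124deltaC/deltaC, and Gpr124-/- overlapped both genotypes. Its log2 fold change was −1.69 (SE 0.69, adjusted p = 0.113, edgeR) in Gpr124-/- and −0.97 (SE 0.68, adjusted p = 0.627) in Gpr124deltaC/deltaC, and letters J and L differed by 2.32 (SE 0.19, adjusted p = 3.54e-06). With the letter as a term the Gpr124-/- value was −0.11, from the letter K pair alone. The Gpr124deltaC/deltaC value became −1.14 (adjusted p = 0.00088). Foxc1 ranged from 14.4 to 39.0 TPM in wild type, 15.7 to 46.9 in Gpr124deltaC/deltaC and 16.4 to 20.4 in Gpr124-/-, and Foxl2, a gene best known from the ovary and eyelid, from 3.03 to 19.2, 2.34 to 21.9 and 1.53 to 8.71. Foxl2 rested on 11 to 181 reads per library. Their log2 fold changes in Gpr124-/- were −0.66 (adjusted p = 0.33) and −1.26 (adjusted p = 0.351), and letters J and L differed by 1.40 (adjusted p = 0.00109) and 2.47 (adjusted p = 0.00213).

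Over the 9 genes, 5 were called higher in letter J than in letter L (Foxf1, Foxq1, Foxc1, Foxl2 and Sox17), beside 4.96% of all tested genes. The test of whether the effect of Gpr124deltaC/deltaC differed between letters J and L passed an adjusted p of 0.05 for 0 of the 9 (edgeR), beside 0.012% of all genes, and the lowest unadjusted p was 0.0174, for Sox17. It rests on 1 letter L wild-type library, so few differences could be detected and the 0 does not show that the effects were alike. Fibroblast markers summed to 20.03 to 37.5 CPM in letter J and 29.1 to 36.3 in letter L, and pericyte markers to 35.4 to 63.3 and 22.1 to 39.6, so both overlapped. Neuron markers summed to 91.4 to 119 CPM in letter J and 152 to 184 in letter L, and erythroid markers to 1407 to 1871 and 824 to 1323, without overlap. The part of these cells in the letter differences was not tested.

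**Figure D4:**
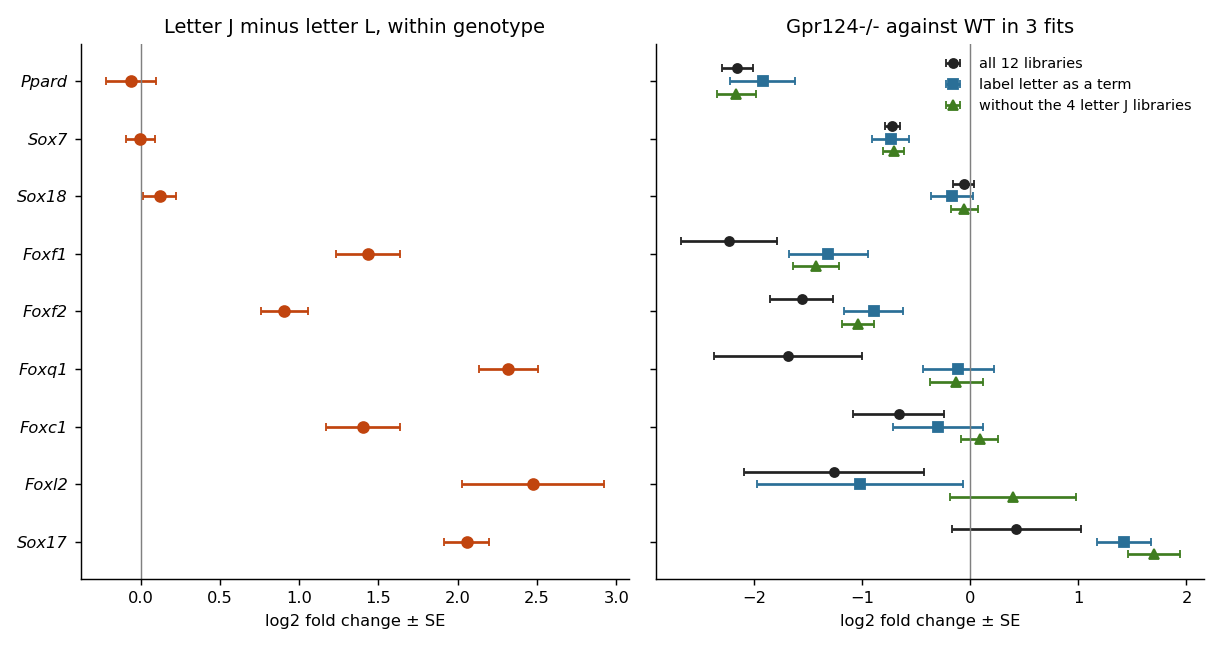
Left, log2 difference between letters J and L within genotype (± SE) for each gene. Right, the Gpr124-/- difference from wild type (± SE) in the fit of all 12 libraries, with the letter as a term (set by the letter K pair), and without the 4 letter J libraries. Ppard, Sox7 and Sox18 sit near 0 on the left and move little on the right. Foxf1, Foxf2, Foxq1, Foxc1, Foxl2 and Sox17 shift to higher values on the right.

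Foxq1, Foxf2 and Foxc1 form a cluster on chromosome 13, with 64.8 kb between Foxq1 and Foxf2 and 175 kb between Foxf2 and Foxc1. Among the noncoding genes there, 1700018A04Rik (−1.18, adjusted p = 0.00031, edgeR), Gm11377 (−1.37, adjusted p = 0.00675), Gm11378 (−1.37, adjusted p = 0.00738) and Gm11379 (−1.17, adjusted p = 0.00732) were called lower in Gpr124-/-. Their differences between letters J and L lay from −0.55 to −0.02, in contrast with 0.91 to 2.32 for the 3 forkhead genes. A530084C06Rik, whose exons overlap Foxq1 on the opposite strand, differed between letters by 1.34. Gmds, 8936 bases from Foxc1, differed from wild type by 0.06.

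**Figure D5:**
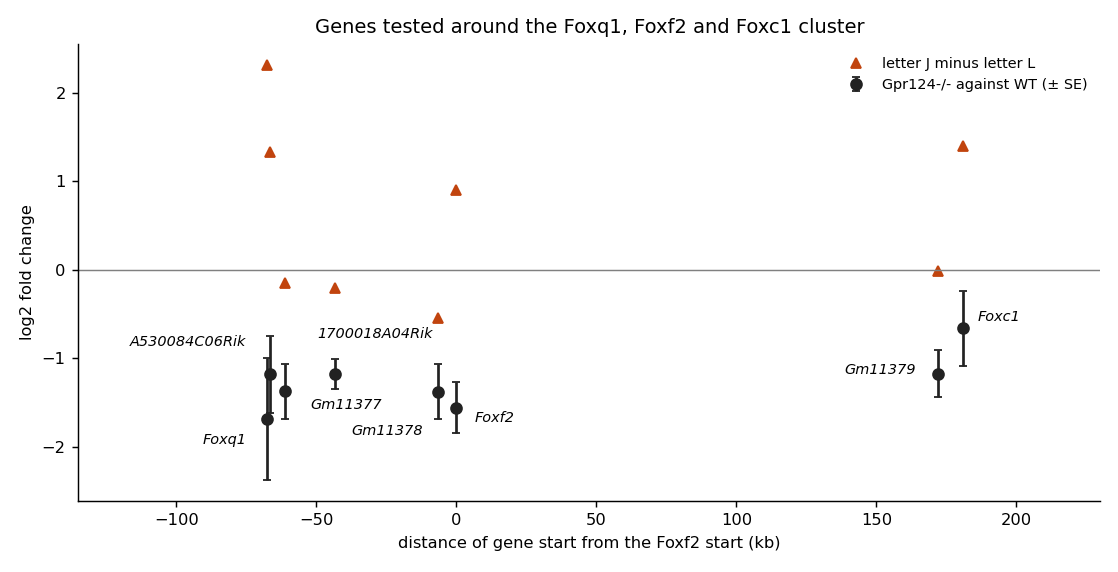
log2 difference of Gpr124-/- from wild type (circles, ± SE) and of letter J from letter L (triangles) against the distance of each gene's start from that of Foxf2, for tested genes of the cluster, with flanking genes such as Gmds left out. The genotype differences plotted are below 0, while the letter differences are above 0 for Foxq1, A530084C06Rik, Foxf2 and Foxc1 and at or below 0 for the noncoding genes.

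Neighbors of the other genes moved in part. Fendrr, a long noncoding RNA gene that lies 1276 bases from Foxf1 on the opposite strand, was 6.03 ± 1.36 TPM in wild type, 1.87 ± 0.666 in Gpr124deltaC/deltaC and 0.609 ± 0.533 in Gpr124-/- (SD, n = 4), with log2 fold changes of −3.36 (adjusted p = 0.000144, edgeR) and −1.74 (adjusted p = 0.0251), and its difference between letters J and L was −0.07. Foxl2os, 308 bases from Foxl2 on the opposite strand, was 58.4 ± 7.39 TPM in wild type, 58.9 ± 8.76 in Gpr124deltaC/deltaC and 22.4 ± 8.69 in Gpr124-/-, with a log2 fold change of −1.44 (adjusted p = 0.000185) in Gpr124-/- and a letter difference of −0.04. Faim and Gm1123 near Foxl2 were also called lower in Gpr124-/-. Def6, 4146 bases from Ppard, had log2 fold changes of −2.03 in Gpr124-/- and −0.77 in Gpr124deltaC/deltaC, both at an adjusted p under 0.05. Fkbp5, 97626 bases from Ppard, was called higher in Gpr124-/-. For Sox7, Sox17 and Sox18, no tested gene within 100 kb was called in any comparison by edgeR.

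Likeness over the 12 libraries, given as Pearson's r of log2 CPM and, in parentheses, of deviations from the genotype means, set the genes apart along the same lines. The genes share libraries and depth, so these are descriptions. Sox7 was most alike to Axin2, a feedback inhibitor of WNT signaling (0.99, deviations 0.85), Map7 (0.97, deviations −0.07) and Fth1 (0.97, deviations −0.08). Ppard was most alike to Adgrl3 (0.99, deviations 0.75), Fth1 (0.99, deviations 0.75) and Car2 (0.98, deviations 0.60). Sox17 was most alike to Hnrnpab (0.997, deviations 0.997), Nt5dc2 and Isoc1 (both 0.99, deviations 0.99), each of which differed by 1.94 to 2.12 between letters J and L. Foxq1 was most alike to Igfbp2 (0.98), Arl2bp (0.97) and Slc7a5, an amino acid transporter gene of the blood-brain barrier (0.97). Foxf2 was most alike to Prkcb (0.98), Dtx4 (0.97) and the WNT inhibitor gene Apcdd1 (0.97), and Foxf1 to Casc4 (0.96), Tpst1 and Ppm1h (both 0.95). Foxc1 was most alike to Dennd5a, Ogfrl1 and Afdn, Foxl2 to Pard3, Cachd1 and Dusp2, and Sox18 to Apold1, Mrpl34 and Gnai2, with r from 0.88 to 0.96. Between the 9 genes, deviations of Foxq1 and Sox17 correlated at 0.99, and those of Ppard and Sox7 at 0.07.

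Genes that respond to WNT signaling were followed as a fixed list. Of the 9 tested WNT response genes, 8 were called lower in Gpr124-/- and 4 in Gpr124deltaC/deltaC, beside 4.21% and 1.03% of all genes, with medians of −2.14 and −1.07 against −0.01 and 0.01 over all genes. Notum, Nkd1 and Apcdd1 had the lowest log2 fold changes in Gpr124-/- (−3.88, −3.77 and −3.61). Lef1, which encodes a transcription factor that acts with beta-catenin, fell by 0.70 on the log2 scale, below the fold threshold.

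Other forkhead and SOX genes were counted by family, beside 4.21% of all genes called lower and 5.67% called higher in Gpr124-/-. Of the 18 other forkhead genes tested, 1 was called in Gpr124-/-, Foxp2, which fell by 1.25 on the log2 scale (adjusted p = 9.36e-05, edgeR). Of the 9 other SOX genes tested, 1 was called, Sox11, which rose by 1.03 (adjusted p = 0.00785), beside neuron marker sums of 140 to 182 CPM in Gpr124-/- against 77.6 to 167 in wild type. None of the other forkhead or SOX genes was called in Gpr124deltaC/deltaC by edgeR.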

How the data were processed

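CD31+ endothelial cells were sorted from the forebrain of single E15.5 embryos. RNA was isolated with the PicoPure kit, amplified with SMART-Seq V4, selected for poly(A) and read as pairs on a HiSeq instrument. The processing notes list bcl2fastq 2.17 and the build mm10. The aligner, the counting program and its strand setting are not given in the sources used here. The authors deposited whole-number counts of reads per Ensembl gene, without normalization. TPM, deposited beside them, follows from dividing by gene length and scaling each library, and was recomputed to within 0.00498%.

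Symbols came from GENCODE vM21, in which 49056 of 49315 identifiers were found. The tests ran in edgeR 4.0.16 (R 4.3.3). filterByExpr (minimum count 10, minimum total count 15, large n 10, minimum proportion 0.7) left 16637 genes. TMM factors lay between 0.946 and 1.04. The quasi-likelihood model had genotype as its term over all 12 libraries, and p-values were adjusted by the Benjamini-Hochberg method over all 16637 genes. Intervals of differences are 1.96 SE on each side. The log2 CPM of the likeness measure used a prior count of 2. Python 3.11.15 with pandas 2.3.3, numpy 2.4.6 and matplotlib 3.10.9 made the tables and plots.

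The genes described and the gene lists were chosen with earlier results of these data known. From each list, counts and up to 4 called genes of largest log2 fold change against wild type were named. Genes within 100 kb of each of the 9 genes, and the 3 genes most alike to each among those averaging 8 CPM or more, were taken by rule. Other forkhead and SOX genes were named if called and averaging 1 CPM or more. Lef1, Rxra and Rxrb were named outside these rules, after their values were seen. Some listed genes are not reported here.

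Alternatives were upper-quartile factors, DESeq2 1.42.0, other count filters, only the compared genotypes, no fold threshold, limma 3.58.1 on log2(TPM + 1) or log2(TPM + 0.1), the embryo label letter as a term, and each library left out. The fits without the letter J libraries or with those alone, and the tests between letters, were chosen after seeing the data.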

Additional observations from a re-analysis of the deposited data

Results flagged for a closer look

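Sox18 in Gpr124-/- had 1 embryo, ME5, at 935 TPM, while the other 3 embryos lay within 860 to 867 TPM. Its gap was 0.901 of the range; Dixon's critical value for 4 samples was passed. Of 27 groups examined (9 genes in 3 genotypes) this was the 1 that passed, and chance passes about 1 in 20. No difference between the letters in the effect of Gpr124deltaC/deltaC passed the adjusted threshold for any of the 9 genes.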

How the results depend on the processing

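Over 603 refits of the log2 fold changes of the 9 genes, 572 kept direction and side of the threshold, 11 passed it anew in the same direction, 1 lost it and 19 changed sign, 1 of which also passed it (Foxq1, higher in Gpr124-/- than in Gpr124deltaC/deltaC without the letter J libraries); none of the 19 concerned Ppard, Sox7 or Foxf2. Calls of genes moved as follows. A term for the label letter left 846 calls in Gpr124-/- against wild type and 209 between the mutants, against 1644 and 766. Without a fold threshold the counts were 3295, 680 and 1468 in Gpr124-/-, in Gpr124deltaC/deltaC (320 with it) and between the mutants. limma without a filter called 201 in Gpr124deltaC/deltaC and 395 between the mutants, where limma on log2(TPM + 1) called 470 and on log2(TPM + 0.1) 509. Without the letter J libraries 148 were called in Gpr124deltaC/deltaC and 1465 between the mutants. Leaving out single libraries gave 1450 to 1824, 257 to 336 and 506 (without ME5) to 1008 calls.

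Of the 9 genes, DESeq2 called 2 in Gpr124deltaC/deltaC and the letter term 3 (each called 428 of all genes, against 320), no fold threshold 2, and the fits without or with the letter J libraries alone 2 each (148 and 274 of all genes). Between the mutants no fold threshold called 2 and the fit without letter J 2. With single libraries left out, 3 to 3, 1 to 2 (Foxf1 joins without JE3) and 0 to 1 (Foxf2 joins without LE2) were called. With the letter as a term, the letter K pair alone set the Gpr124-/- differences from wild type, −1.92 for Ppard, −1.31 for Foxf1 and 1.42 for Sox17.

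Sign changes were small except where letter J mattered. Without the letter J libraries, Foxc1 and Foxl2 became 0.0865 and 0.393 in Gpr124-/-, and between the mutants Foxf1, Foxq1, Foxc1 and Foxl2 became 0.19, 1.06, 0.29 and 1.19. With the letter term, Foxf1, Foxq1 and Sox18 became 0.17, 1.03 and −0.0318 between the mutants, and with letter J alone Sox17 became 0.00218 in Gpr124deltaC/deltaC. Single libraries left out moved Foxc1 from −0.74 to 0.17 and Sox17 from −0.54 to 0.32 in Gpr124deltaC/deltaC, and Foxc1 from −0.74 to 0.0819 and Foxl2 from −1.23 to 0.54 between the mutants. The cause was not tested. The labels give no replicate numbers to use as a block, and the label letter, shared by some embryos of different genotypes, was used as a term instead.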

Other observations

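General endothelial transcription factors were counted as a list of 26, all tested. Meox2 was called higher in Gpr124-/- by 3.64 on the log2 scale and Tcf7, a WNT effector, lower (−1.48), and the median was −0.01, as over all genes. Thus 1 of the 26 was called higher and 1 lower, beside 5.67% and 4.21% of all genes. Of 12 genes reported as targets of SOXF factors, Cldn5, the claudin of brain endothelial tight junctions, was called lower in Gpr124-/- (9177 TPM in wild type, 4994 in Gpr124deltaC/deltaC and 2166 in Gpr124-/-) and Esm1, a tip cell gene, higher (21.5, 85.2 and 462 TPM). These counts of 1 lower and 1 higher among the 12 stand beside 4.21% and 5.67% of all genes.

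Among the 3 tested PPAR and RXR genes, Pparg had 0 to 4 reads in wild type, 1 to 5 in Gpr124deltaC/deltaC and 20 to 88 in Gpr124-/-, or 0.0844 ± 0.102, 0.173 ± 0.0847 and 3.52 ± 1.59 TPM (SD, n = 4). Fabp4 was 0.041 ± 0.018, 0.0947 ± 0.0647 and 4.05 ± 2.07 TPM. Rxra and Rxrb differed from wild type by 0.20 on the log2 scale in Gpr124-/-, with adjusted p of 0.528 and 0.688 (edgeR).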
